A study of Oryza sativa with 12 samples.

Results

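The 6 defence genes described here were followed across germinating rice embryos in air, with an uncoupler and under AC: the chitinase genes CH16 and CH6, the germin-like gene GER4, the lectin gene salT, the isochorismate synthase gene OsICS and the lipoxygenase gene LOX1.1. They were chosen by name from earlier results of these data, as genes whose level was much lower with DNP or AC than in air, mostly on mannitol. Each was matched by symbol or synonym to 1 probe set that maps to 1 gene, so that they make up 6 of the 36643 probe sets on the array. Because those differences chose the genes, every comparison of them with air below is a description without a test. The DNP and AC arrays took part in that choice as much as the air arrays, so a p-value printed for these genes between those arrays is not independent of it.

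Plants answer fungi, insects and wounding with secreted proteins and with small signalling molecules. Chitinases cut chitin, the polymer of fungal walls, and germin-like proteins are cell wall proteins of the cupin family. Isochorismate synthase makes isochorismate, a precursor of phylloquinone and, in Arabidopsis, of most of the salicylate made on infection. Lipoxygenases add oxygen to unsaturated fatty acids at the start of the oxylipin pathways, one branch of which leads to jasmonate. The salT protein is a mannose-binding lectin of the jacalin family, known in rice for its response to salt and drying. Genes of these families also respond to hormones and other stresses, and they do not mark infection alone.

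In the study, embryos of rice (Oryza sativa) of the cultivar Dongjin germinated in darkness at 28 °C over 24 h, and their total RNA was measured on 12 arrays, 2 in each of 6 groups. All embryos lay in 10 mM calcium chloride. The groups Glc and Mtl were kept in air with 60 mM glucose or 60 mM mannitol, a sugar alcohol that gives the same osmolarity without being glucose. The groups GlcDNP and MtlDNP were kept in air with the same sugars and 0.08 mM 2,4-dinitrophenol (DNP), an uncoupler of mitochondrial respiration that the study used to starve cells of energy. The groups GlcAC and MtlAC carry a label that is not spelled out, and they are read here as the embryos submerged in the same media flushed with nitrogen. The name AC is kept for them. Submersion and the flushing with nitrogen went together, so lack of oxygen and immersion cannot be told apart. The replicates are described as technical, so that the p-values cover only array-to-array spread and no variation among lots of embryos.

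All values are levels as deposited, taken to be log2, and levels of different genes are not compared because probe sets differ in brightness. Array medians lay between 3.23 and 3.31, and the 5th percentile of an array lay between 1.001 and 1.16. Pairs of arrays of a group correlated at 0.950 to 0.976 over all probe sets. The samples carried embryo transcripts: the median level of 8 embryo markers (late embryogenesis and RAB16 genes, the oleosin gene OLE18 and the homeobox gene OSH1) was 5.42 in Glc, 5.33 in Mtl, 7.79 in GlcDNP, 7.76 in MtlDNP, 6.28 in GlcAC and 6.95 in MtlAC. The marker medians were lowest in the air groups, where the defence genes were mostly highest. OSH1 did not follow these medians, with its highest group mean in Glc at 3.43, then 3.11 in Mtl and 3.03 to 3.29 in the other groups. The part of the embryo markers in the results was not tested. Markers of endosperm and aleurone, 9 in number, had median levels between 1.49 and 2.63. The 5 markers of green shoot had medians between 1.82 and 2.88. Group means of single genes of these 2 kinds ran from 0.86 to 4.68. In whole embryos, fewer cells of a type and less RNA per cell cannot be told apart.

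The 2 chitinase genes had the lowest ranks of the 6 against air on mannitol. CH16, also named Cht1, RC24 and OsChia1a, is a class I chitinase gene. Its arrays read 7.31 and 7.44 in Glc, 8.35 and 8.14 in Mtl, 4.92 and 4.61 in GlcDNP, 3.27 and 3.41 in MtlDNP, 4.83 and 4.80 in GlcAC, and 3.66 and 4.27 in MtlAC. The 4 air arrays were the highest, with mannitol above glucose, and the mannitol arrays with DNP were the lowest. GlcAC and GlcDNP overlapped, while every other pair of neighbours in the order of group means lay apart. CH16 was lower with DNP than in air by a log2 difference of -4.91 ± 0.22 (SE) on mannitol, a fold of 30.0, and of -2.61 ± 0.22 on glucose. Under AC the differences from air were -4.28 ± 0.22 on mannitol, a fold of 19.4, and -2.57 ± 0.22 on glucose.

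CH6, the class I chitinase gene also named Cht3 and OsChia1c, followed nearly the same order. It read 6.98 and 7.39 in Glc, 8.57 and 8.67 in Mtl, 4.69 and 5.05 in GlcDNP, 3.69 and 4.08 in MtlDNP, 4.76 and 5.10 in GlcAC, and 4.56 and 4.52 in MtlAC. Again the air arrays were highest, mannitol first, and again only GlcAC and GlcDNP overlapped among neighbours. The differences from air on mannitol were -4.73 ± 0.22 with DNP, a fold of 26.6, and -4.08 ± 0.22 under AC, a fold of 16.9. On glucose they were -2.31 ± 0.22 with DNP and -2.25 ± 0.22 under AC. The RefSeq gene table (assembly GCF_034140825.1) lists CH16 and CH6 as neighbours with 0 annotated genes between them. Over the 12 arrays the pair had a Pearson correlation of 0.981, given as a description because the arrays share 6 groups. Whether the probes of these related genes share sequence was not tested.

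GER4 encodes a germin-like protein. It read 4.68 and 5.42 in Glc, 6.05 and 5.70 in Mtl, 3.17 and 3.70 in GlcDNP, 2.11 and 2.67 in MtlDNP, 2.64 and 2.61 in GlcAC, and 2.51 and 1.91 in MtlAC. Both air groups lay above all others, and MtlDNP overlapped both GlcAC above it and MtlAC below it in the order of means, while GlcAC lay above MtlAC. No order was given for MtlDNP. GlcAC, MtlDNP and MtlAC lay below the array medians. The differences from air were -3.48 ± 0.32 with DNP and -3.66 ± 0.32 under AC on mannitol, folds of 11.2 and 12.7. On glucose they were -1.61 ± 0.32 with DNP and -2.42 ± 0.32 under AC.

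OsICS, the gene of isochorismate synthase, read 6.06 and 6.78 in Glc, 7.96 and 8.03 in Mtl, 4.53 and 4.70 in GlcDNP, 3.78 and 3.63 in MtlDNP, 5.44 and 5.35 in GlcAC, and 4.83 and 4.80 in MtlAC. No neighbouring groups overlapped, and the order ran from Mtl through Glc, GlcAC, MtlAC and GlcDNP to MtlDNP. Both AC groups were thus above both DNP groups. OsICS differed from air on mannitol by -4.29 ± 0.22 with DNP, a fold of 19.6, and by -3.18 ± 0.22 under AC, a fold of 9.06. On glucose the differences were smaller, at -1.81 ± 0.22 and -1.03 ± 0.22.

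LOX1.1, a lipoxygenase gene, read 5.68 and 5.89 in Glc, 7.43 and 7.49 in Mtl, 4.68 and 4.65 in GlcDNP, 4.56 and 4.27 in MtlDNP, 3.67 and 4.10 in GlcAC, and 4.14 and 4.23 in MtlAC. Its 4 groups away from air spanned less than 1 log2 unit, and it was the only one of the 6 with its lowest mean in GlcAC. The differences from air on mannitol were -3.04 ± 0.19 with DNP and -3.27 ± 0.19 under AC, folds of 8.24 and 9.63. On glucose they were -1.12 ± 0.19 and -1.91 ± 0.19.

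The lectin gene salT was much lower than in air with DNP on mannitol alone, and under AC on glucose it went against the description by which it was chosen. It read 9.16 and 9.21 in Glc, 11.62 and 11.56 in Mtl, 9.15 and 8.82 in GlcDNP, 7.18 and 7.49 in MtlDNP, 11.13 and 11.09 in GlcAC, and 10.98 and 10.88 in MtlAC. The Mtl arrays and all 4 AC arrays were high, the 2 groups on glucose in air and with DNP were in the middle, and MtlDNP was low. With DNP on mannitol salT was lower than in air by -4.26 ± 0.18, a fold of 19.1. Under AC on mannitol the difference was -0.66 ± 0.18, a fold of 1.58, and under AC on glucose salT was higher than in air by 1.93 ± 0.18, a fold of 3.80. With DNP on glucose the difference was -0.20 ± 0.18, and it became 0.41 when the deposited columns were quantile normalized again.

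**Figure D1:**
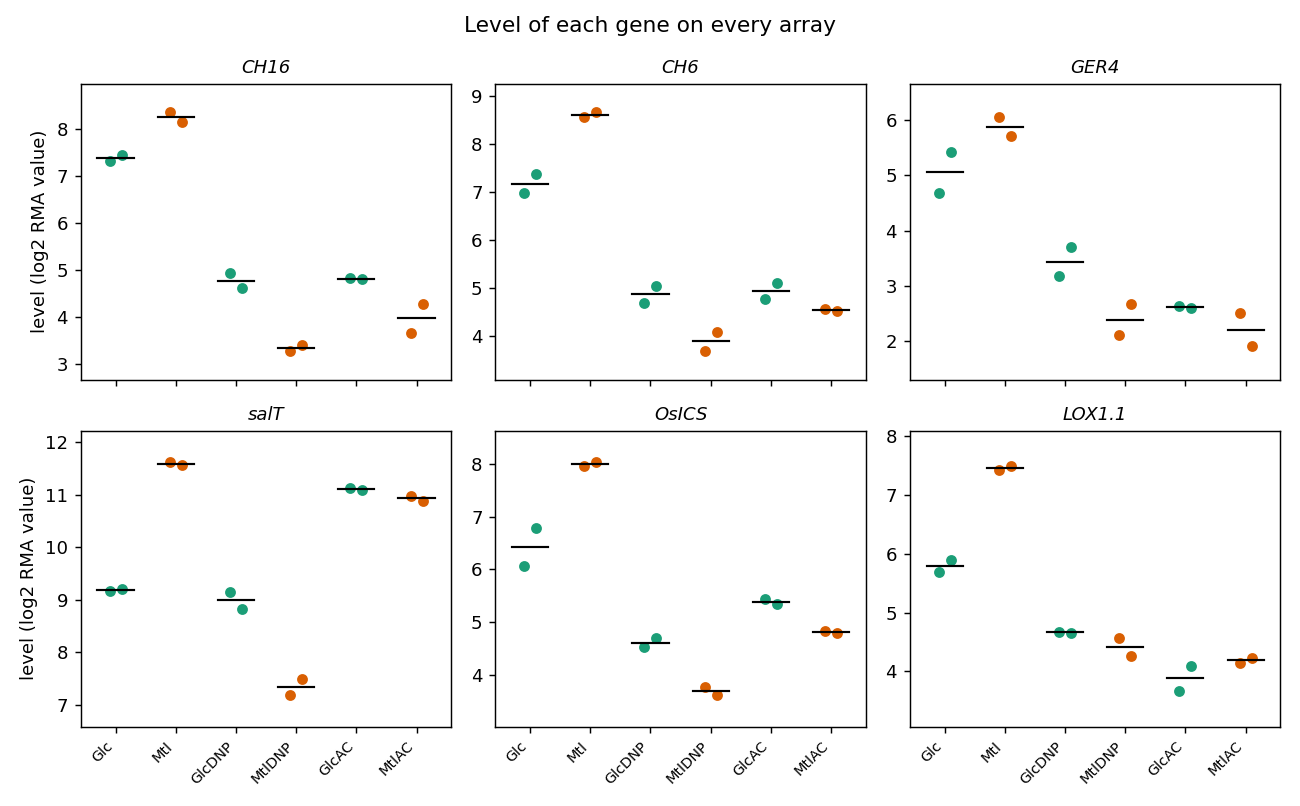
Log2 levels (vertical axes, with a separate range for each gene) of the 6 defence genes in the 6 groups (horizontal axes), with each of the 2 arrays as a point and the group mean as a line. The Mtl arrays are the highest for every gene, and salT differs from the other 5 in its high arrays under AC, at 10.88 to 11.13.

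The group mean was highest in Mtl for 6 of the 6 genes, against 16.6% of all probe sets. Ranked from the lowest difference over all 36643 probe sets, DNP over air on mannitol put CH16 at 16, CH6 at 21, OsICS at 41, salT at 45, GER4 at 155 and LOX1.1 at 285. AC over air on mannitol put CH16 at 16, CH6 at 30, GER4 at 55, LOX1.1 at 114, OsICS at 125 and salT at 5872. On glucose the 5 genes other than salT ranked between 418 and 3140 with DNP and between 68 and 1644 under AC, where salT stood near the other end at 36462. These ranks, and in large part the highest mean in Mtl, restate the choice of the genes and carry no test.

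For the 6 genes the median difference from air was -4.27 with DNP and -3.47 under AC on mannitol, and -1.71 and -2.08 on glucose. The medians over all probe sets in the same comparisons were 0.15, 0.10, 0.10 and 0.03. Over all probe sets, a call needed an adjusted p under 0.05 and a log2 difference of at least 1 in limma. By that rule 10.4% of probe sets were lower and 5.91% higher with DNP on mannitol, and 9.28% were lower and 4.67% higher with DNP on glucose. Under AC on mannitol 8.65% were lower and 3.56% higher, and on glucose 3.25% were lower and 2.01% higher. Quantile normalizing the deposited values again raised the share of calls that were higher in each of these comparisons. With DNP it went from 33.5% to 42.7% on glucose and from 36.2% to 44.4% on mannitol. Under AC it went from 38.2% to 47.6% on glucose and from 29.1% to 41.2% on mannitol. Lower calls stayed the larger part in each. Each comparison with DNP shares its air arrays with the comparison under AC on the same sugar, so the paired values are set side by side and not correlated.

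**Figure D2:**
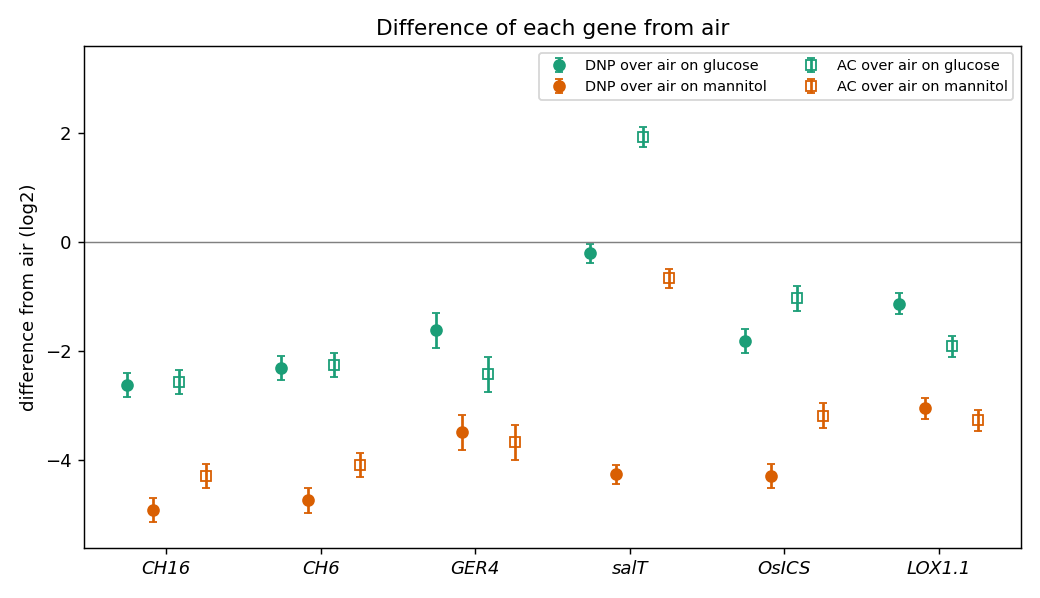
Log2 difference from air (axis in log2 units, 0 meaning no difference) for each of the 6 genes with DNP and under AC, on glucose and on mannitol, with SE as bars. Points for mannitol lie between -3.04 and -4.91 except that of salT under AC at -0.66, and the single positive value is salT under AC on glucose at 1.93.

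The 5 genes other than salT kept high pairwise correlations over the 12 arrays, between 0.866 and 0.981. Those of salT with the others lay between 0.274 and 0.649. Arrays of a group are not independent, and these values are descriptions.

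The sugars ordered the genes differently in air and away from it. In air all 6 genes were lower with glucose than with mannitol, by -2.40 ± 0.18 for salT, -1.67 ± 0.19 for LOX1.1, -1.57 ± 0.22 for OsICS, -1.44 ± 0.22 for CH6, -0.87 ± 0.22 for CH16 and -0.83 ± 0.32 for GER4. This comparison used the air arrays, which had helped choose the genes, and was not tested for them. Over all probe sets 1.53% were called lower and 0.469% higher with glucose in air.

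With DNP the direction was the opposite in 6 of 6 genes, with glucose arrays above mannitol arrays and no overlap. The log2 difference of glucose over mannitol with DNP was 1.65 ± 0.18 for salT, 1.43 ± 0.22 for CH16, 1.04 ± 0.32 for GER4, 0.99 ± 0.22 for CH6, 0.91 ± 0.22 for OsICS and 0.25 ± 0.19 for LOX1.1. The low MtlDNP levels behind these differences had helped choose the genes, so the differences are read as a description. In the fit over all probe sets salT alone met the call rule, with a fold of 3.14 and an adjusted p of 0.0345 by limma, where 0.0109% of probe sets were called higher and 0.00273% lower. The adjusted p of the other 5 lay between 0.199 for CH16 and 0.831 for LOX1.1. The call of salT was lost in 11 of 12 fits that left out 1 array, with adjusted p from 0.0299 to 0.170, and the adjusted p was 0.0650 with the replicate number as a block. A reversal with arrays apart, lower with glucose in air and higher with glucose with DNP, was found in 3.57% of all probe sets.

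Under AC glucose again lay above mannitol in 5 of 6 genes, by smaller amounts. The difference was 0.84 ± 0.22 for CH16, 0.58 ± 0.22 for OsICS, 0.41 ± 0.32 for GER4, 0.39 ± 0.22 for CH6, 0.18 ± 0.18 for salT and -0.31 ± 0.19 for LOX1.1. None was called by limma, and the lowest adjusted p was 0.0706 for CH16. Of the 6 genes 2 had an unadjusted p under the threshold, as did 6177 of all 36643 probe sets. Without replicate 2 of MtlAC the difference of CH16 was 1.15. The sign of salT turned to -0.03 on renewed quantile normalization. Over all probe sets 2.27% were called higher and 0.393% lower with glucose under AC, and renewed quantile normalization lowered the share of calls that were higher from 85.2% to 68.2%. The reversal against air, with arrays apart, held for 5 genes under AC and for 4.24% of all probe sets. The Mtl and MtlAC levels behind it had helped choose the genes, so it is read as a description. The p-values of the 6 genes under AC are likewise not independent of that choice.

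The difference between sugars with DNP was set against that under AC, an interaction added after the values had been seen. It was 1.47 ± 0.25 for salT and 0.33 to 0.63 in the other 5 genes. All 4 groups in it had helped choose the genes, and salT was lowest in MtlDNP, so these values are a description. The call of salT in the fit over all probe sets was lost in 12 of 12 fits that left out 1 array. Over all probe sets 0.42% were called in this interaction in either direction. The changes in the sugar difference from air to DNP ran from 1.87 for GER4 to 4.05 for salT, and those from air to AC from 1.24 for GER4 to 2.59 for salT, and were not tested either.

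**Figure D3:**
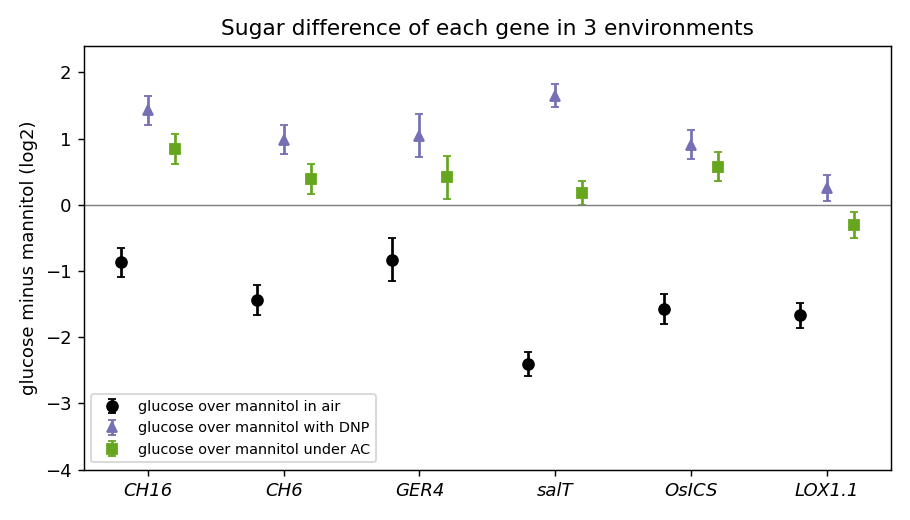
Log2 difference of glucose over mannitol (axis in log2 units) for each of the 6 genes in air, with DNP and under AC, with SE as bars. All 6 values in air are below 0, all 6 with DNP are above 0, and those under AC lie between -0.31 and 0.84.

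The AC arrays were compared directly with the DNP arrays, without the air arrays. These comparisons share the DNP and AC arrays with those that chose the genes, so their p-values are no independent evidence about them. Transcripts of salT were higher under AC than with DNP on both sugars, by 2.13 ± 0.18 on glucose (a fold of 4.37, adjusted p 0.000147 by limma) and by 3.59 ± 0.18 on mannitol (a fold of 12.1, adjusted p 1.82e-05). These 2 calls were kept in all 18 alternative fits. OsICS was higher under AC on mannitol by 1.11 ± 0.22, a fold of 2.16, with an adjusted p of 0.0299, and its difference on glucose was 0.78 ± 0.22 with an adjusted p of 0.0633. The OsICS call was lost in 8 of 12 fits that left out 1 array, with adjusted p from 0.00999 to 0.134.

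LOX1.1 differed in the other direction on glucose, by -0.78 ± 0.19 with an adjusted p of 0.0348, which did not reach the size threshold. On mannitol its difference was -0.22 ± 0.19. GER4 differed by -0.81 ± 0.32 on glucose (adjusted p 0.167) and -0.18 ± 0.32 on mannitol (adjusted p 0.860). The chitinases CH16 and CH6 differed by 0.04 ± 0.22 and 0.06 ± 0.22 on glucose, and by 0.63 ± 0.22 and 0.65 ± 0.22 on mannitol, with adjusted p from 0.185 to 0.935. In all, 1 of 6 genes was called on glucose, where 3.97% of probe sets were higher and 1.3% lower. On mannitol 2 of 6 were called, where 1.56% of probe sets were higher and 0.488% lower. The DNP and AC levels helped choose the genes, so these counts are no measure of an excess over those shares. Renewed quantile normalization lowered the share of calls that were higher on glucose from 75.4% to 62.8%.

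The wider set of defence genes was followed through 117 other genes with a usable name, in 8 lists of which the matching by name is incomplete. The 6 genes are left out of these lists, and the others were tested in all comparisons. The lists were chosen with earlier results of these data known, so their shares and p-values may not be independent of those results. With DNP, 18 fell and 1 rose on glucose and 20 fell and 1 rose on mannitol. Under AC, 13 fell and 2 rose on glucose, and 22 fell and 1 rose on mannitol. The shares that fell were 15.4%, 17.1%, 11.1% and 18.8%, each above the share of all probe sets given for that comparison, a description without a test. Those that rose were 0.855%, 0.855%, 1.71% and 0.855%, each below the share of all probe sets called higher. Yet the medians of the 117 genes lay between -0.14 and -0.01, and most of them were not called in any 1 comparison. The highest group mean was in Mtl for 28 of the 117, beside 16.6% of all probe sets. The median of the embryo markers moved with these groups too, though OSH1 did not follow it, as given above. The part of these markers was not tested.

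The chitinase list, matched by name, held 13 other genes. On mannitol 4 fell and none rose with DNP, and 3 fell and 1 rose under AC. Of all probe sets, 10.4% and 8.65% fell in these comparisons. The medians of the list in these comparisons were above 0, at 0.32 and 0.29. On glucose 2 fell with DNP, against 9.28% of all probe sets, and 2 rose under AC with none falling, against 2.01% and 3.25%. The gene LOC4349267, named Cht2, Cht8 and OsChia2a, read 6.78 and 6.75 in Mtl, 4.07 and 3.32 in MtlDNP, and 3.67 and 3.81 in MtlAC. It fell by 3.07 with DNP (SE 0.51, adjusted p 0.00172 by limma) and fell by 3.02 under AC (SE 0.51, adjusted p 0.00245). Its arrays in Glc stood apart from each other at 4.12 and 5.79, and on glucose it was not called against air. The class I gene LOC4338718 (Cht-2, RC7, OsChia1b) read 5.73 and 5.61 in Mtl and 3.86 and 3.44 in Glc, and was lower on glucose by -2.02 ± 0.20 (adjusted p 0.000438).

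The 2 genes of the chitinase list that rose under AC on glucose were LOC4351188 and Chib3H-a. The gene LOC4351188, annotated only as a chitinase, read 2.93 and 3.06 in Glc, 3.48 and 3.72 in Mtl, 5.75 and 6.05 in GlcAC, and 6.17 and 4.89 in MtlAC. It rose under AC by 2.90 ± 0.34 on glucose (adjusted p 0.000827 by limma) and by 1.93 ± 0.34 on mannitol (adjusted p 0.00333), with its MtlAC arrays well apart. Chib3H-a, which also carries the names RIXI and XIP-I of a xylanase inhibitor, read 3.14 and 4.01 in Glc, 4.96 and 5.03 in Mtl, 1.66 and 2.28 in GlcDNP, 2.08 and 1.74 in MtlDNP, 6.07 and 6.10 in GlcAC, and 4.65 and 4.90 in MtlAC. It was lowest in the DNP arrays and highest in GlcAC. It rose under AC on glucose by 2.51 ± 0.30 (adjusted p 0.000861) and fell by 3.09 with DNP on mannitol (SE 0.30, adjusted p 6.76e-05). Between AC and DNP on glucose it differed by 4.12 ± 0.30 (adjusted p 6.28e-05), a fold of 17.3. Rcb4, also annotated as a chitinase, was lower than in air under AC too. It fell by 2.88 with DNP on mannitol (SE 0.20, adjusted p 1.07e-05) and fell by 1.02 under AC on mannitol (SE 0.20, adjusted p 0.00511), the latter call being lost in 2 of 12 fits that left out 1 array. Under AC on glucose its difference was -0.70 ± 0.20 with an adjusted p of 0.0579. On mannitol Rcb4 was 1.85 ± 0.20 higher under AC than with DNP (adjusted p 0.000865).

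Of 8 other germin-like genes, 1 was called lower than in air on mannitol in each environment and none on glucose. That share, 12.5%, is near the 10.4% and 8.65% of all probe sets that fell. That gene, GER2, was dim, at 2.58 and 3.58 in Mtl and at most 2.03 in all other arrays, and fell by 1.48 with DNP (adjusted p 0.0112 by limma) and fell by 1.50 under AC (adjusted p 0.0134). Both calls were lost in 2 of 12 fits that left out 1 array.

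The salicylate list held 8 genes, of which 2 fell on mannitol and 1 on glucose in each environment, and 1 rose with DNP on glucose. The 2 genes, 25.0% of the list, stand beside 10.4% and 8.65% of all probe sets, and the 1 gene, 12.5%, beside 9.28% and 3.25%. NH1, the rice NPR1 gene whose product relays the salicylate signal to defence genes, had a pattern with a single high group. It read 7.16 and 7.34 in Mtl, against 4.68 and 5.02 in Glc, 4.36 and 4.74 in MtlDNP, and 5.49 and 4.97 in MtlAC. On mannitol NH1 fell by 2.70 with DNP (SE 0.23, adjusted p 3e-05 by limma) and fell by 2.02 under AC (SE 0.23, adjusted p 0.000226), and the difference of glucose over mannitol in air was -2.40 ± 0.23 (adjusted p 0.000332). NH3, an NPR1 relative, rose with DNP on glucose by 1.48 ± 0.24 (adjusted p 0.00158), at 4.26 and 3.89 against 2.52 and 2.66 in Glc. On mannitol its difference with DNP was 0.99 ± 0.24 (adjusted p 0.0118 by limma), just under the size threshold. PAL06, a phenylalanine ammonia-lyase gene, was called lower in all 4 comparisons with air, and each of these calls was lost in 1 to 3 of the 12 fits that left out 1 array.

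The lipoxygenase and jasmonate list was the longest, with 36 genes. With DNP 9 fell on each sugar, and under AC 5 fell on glucose and 8 on mannitol, with none rising in these 4 comparisons. As shares of the list these were 25.0%, 25.0%, 13.9% and 22.2%, beside 9.28%, 10.4%, 3.25% and 8.65% of all probe sets. AOC3, the allene oxide cyclase gene of jasmonate synthesis, read 7.33 and 7.65 in Glc, 7.03 and 6.86 in Mtl, 5.06 and 4.72 in GlcDNP, 4.03 and 4.73 in MtlDNP, 5.52 and 5.61 in GlcAC, and 4.53 and 4.63 in MtlAC. The air arrays were the highest on both sugars, and AOC3 fell, with differences of -2.59, -2.56, -1.92 and -2.36 with DNP on glucose and mannitol and under AC on glucose and mannitol (SE 0.24, highest adjusted p 0.00121 by limma). JAZ1, a repressor of the jasmonate response, fell likewise, with -2.32, -1.94, -1.74 and -1.73 in the same order (SE 0.19, highest adjusted p 0.000439). OPR-1, of the 12-oxophytodienoate reductase family, fell too, with -2.22, -1.80, -1.51 and -2.07 (SE 0.19, highest adjusted p 0.00120). In AOC3 the difference between sugars in air was 0.54 ± 0.24 with an adjusted p of 0.378.

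Among the remaining lists, PBZ1, the probenazole-inducible gene of the PR10 family, fell in all 4 comparisons, with -1.56, -2.24, -1.92 and -2.12 (SE 0.26, highest adjusted p 0.00174 by limma). Of 18 diterpene phytoalexin genes 1 or 2 fell in each comparison and none rose, among them KSL4 and CPS4, terpene synthases of that pathway. The shares were 11.1% and 5.56% with DNP on glucose and mannitol, beside 9.28% and 10.4% of all probe sets, and 11.1% and 11.1% under AC, beside 3.25% and 8.65%. CPS4 read 4.40 and 4.43 in Glc, and fell by 1.44 with DNP (SE 0.21, adjusted p 0.00098) and fell by 1.45 under AC on glucose (SE 0.21, adjusted p 0.00295). Of 29 genes of chitin perception and immune signalling, 1 fell with DNP on each sugar, and 2 and 4 fell under AC on glucose and mannitol. With DNP the share of 3.45% was below the 9.28% and 10.4% of all probe sets, and under AC the shares were 6.90% and 13.8%, beside 3.25% and 8.65%. The protein kinase gene LOC4328297, named MPK3, fell by 1.52 with DNP on glucose (adjusted p 0.000359), fell by 1.21 under AC on glucose (adjusted p 0.00414) and fell by 1.47 under AC on mannitol (adjusted p 0.000561), with an SE of 0.19. The other gene with the name MPK3, LOC4332475, was not called in these comparisons, with differences of 0.15, -0.09 and 0.13. The single gene of this list called higher, BAK1-7 with DNP on mannitol, was dim and is named because it was the only one, after its value was seen. Of 4 peroxidase genes 2 fell on glucose and 1 on mannitol in each environment. These shares of 50.0% and 25.0% rest on 4 genes. They stand beside 9.28% and 10.4% of all probe sets with DNP, and 3.25% and 8.65% under AC.

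In all 4 comparisons with air, 7 of the 117 genes fell (AOC3, JAZ1, OPR-1, PBZ1, KSL4, PAL06 and the peroxidase gene LOC4344277), and 30 fell in at least 1, where 1.93% and 14.6% of all probe sets did. Of these calls, that of KSL4 was lost in 2 of 12 fits that left out 1 array with DNP on mannitol and in 3 under AC on mannitol, and that of the peroxidase gene in 3 under AC on glucose. Between sugars with DNP none of the 117 genes was called by limma. There 6 had an unadjusted p under the threshold, as did 2622 of all 36643 probe sets. In air 7 were lower and 2 higher with glucose, and under AC 2 were higher with glucose. In air these are 5.98% lower and 1.71% higher, beside 1.53% and 0.469% of all probe sets, and under AC 1.71%, below the 2.27% of all probe sets. The 9 calls between sugars in air became 4 without replicate 1 of Glc and 3 without replicate 2 of Mtl, and the 2 under AC became 0 without either GlcAC array and 1 without either array of Mtl or MtlAC. Between AC and DNP, 5 were higher and 2 lower on glucose, and 3 were higher and 1 lower on mannitol. On glucose the shares of 4.27% and 1.71% are near the 3.97% and 1.3% of all probe sets, and on mannitol 2.56% and 0.855% stand beside 1.56% and 0.488%. The 3 genes higher on mannitol were LOC4351188, Chib3H-a and Rcb4, all of the chitinase list.

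**Figure D4:**
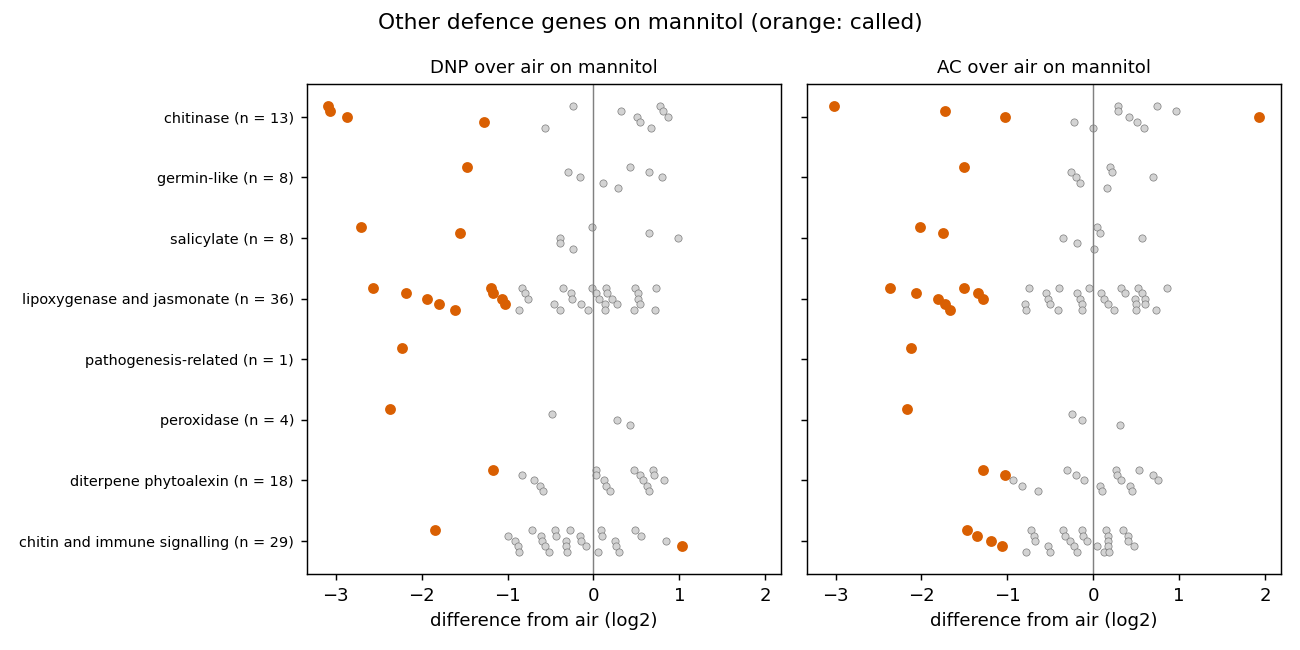
Log2 difference from air on mannitol (horizontal axes, log2 units) of the 117 other defence genes, 1 point a gene, by list (vertical axis), with DNP in the left panel and under AC in the right, and called genes in orange. Called genes lie on the negative side except BAK1-7 with DNP and the chitinase gene LOC4351188 under AC, and the lipoxygenase and jasmonate list holds 9 and 8 of them.

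The named genes most like each of the 6 over the 12 arrays were found by Pearson correlation among 967 named probe sets, other than the 6, whose group means spanned at least 1 log2 unit. CH16 was most like EXPB6, a beta-expansin gene (0.990), PHOT1A, a phototropin gene (0.980), and CIN1, a cell wall invertase gene (0.979). CH6 was most like PHOT1A (0.989), EXPB6 (0.985) and IAA6, of the auxin-response repressors (0.983). EXPB6 had group means of 6.19 in Glc, 6.73 in Mtl, 3.64 in GlcDNP, 2.70 in MtlDNP, 3.80 in GlcAC and 3.28 in MtlAC, the same order of air over the rest. GER4 was most like OsCASPL1D1 (0.961), PHOT1A (0.960) and EXPB6 (0.960).

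OsICS was most like RPL18 (0.986), CIN1 (0.976) and the autophagy gene ATG8A (0.973). LOX1.1 was most like the sucrose-phosphate synthase gene OsSPS4F (0.986), the phytochrome gene PHYA (0.969) and the glycolate oxidase gene GLO3 (0.969). For salT the likest were the potassium transporter gene HAK24 (0.926), the strigolactone receptor gene D14 (0.919) and the trehalose-phosphate phosphatase gene OsTPP1 (0.913). OsTPP1 had group means of 3.90 in Glc, 6.80 in Mtl, 4.24 in GlcDNP, 3.93 in MtlDNP, 6.93 in GlcAC and 6.04 in MtlAC, high in the same 3 groups as salT. These correlations rank genes chosen for likeness and carry no test.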

How the data were processed

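The deposited values are log2 expression values, made with RMA at the core level in Expression Console, per the labels. The submitters' processing notes name Affymetrix Power Tools. The sources used here give no version, genome build, annotation or log base, and base 2 was taken from the range of the values, -0.49 to 13.12. Of 36643 probe sets, 24161 had 1 gene in the platform table, 90 had several and 12392 are unnamed here. The RefSeq gene table served for names only.

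All probe sets were fitted with limma 3.58.1 in R 4.3.3, with 1 coefficient per group over 12 arrays, eBayes (residual degrees of freedom 6, prior 3.82) and p-values adjusted by Benjamini-Hochberg across all probe sets. A call needed adjusted p below 0.05 together with a log2 difference of 1 or more either way. On simulated data the fit recovered fewer changed probe sets than was first required, and the requirement was then reset by size of change, with the fit left as it was. SE comes from the fit, and precision is limited by the number of arrays.

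The 6 genes and the lists were chosen with earlier results of these data known. Of the 10 lists of name patterns, 2 (beta-glucanases and jacalin lectins) had no other measured gene. They were adjusted after the name tables had been seen. The text names up to 4 genes a list with the largest called differences against air and between sugars. The conditions that arrays lie apart, and the names for AC against DNP, were added later, as was the interaction of sugar with DNP against AC. Replicate numbers did not pair the arrays: over 15 pairs of groups, deviations correlated at -0.02 to 0.09. Alternatives were a replicate block, renewed quantile normalization, a filter on dim probe sets, a trended robust fit, limma's treat, the compared arrays alone and leaving out each array.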

Additional observations from a re-analysis of the deposited data

Results flagged for a closer look

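The difference between sugars with DNP was opposite to that in air for all 6 genes, with arrays apart in both. Glucose over mannitol with DNP was 1.65 for salT, 1.43 for CH16, 1.04 for GER4, 0.99 for CH6, 0.91 for OsICS and 0.25 for LOX1.1 on the log2 scale. Under AC it was likewise opposite to air for 5 genes, at 0.84 for CH16, 0.58 for OsICS, 0.41 for GER4, 0.39 for CH6 and 0.18 for salT. Of all probe sets, 3.57% were lower with glucose in air and higher with glucose with DNP, with arrays apart, and 4.24% were so under AC. The differences of the 6 genes from air were not tested, because the air, DNP and AC arrays all took part in choosing the genes. The level of salT was higher under AC than in air on glucose, by 1.93, and lower on mannitol, and that difference was not tested either. The sugar difference of salT with DNP exceeded that under AC by 1.47. The call of that interaction by limma is not independent of the choice of the gene and was lost in 12 of 12 fits that left out 1 array, and in 14 of 17 alternatives in all. Groups of 2 arrays were not screened for outlying arrays.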

How the results depend on the processing

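With the replicate number as a block, the calls among the 6 genes between sugars with DNP went from 1 to 0, and no other count moved by over 1.5 times. Replicate numbers do not pair the arrays. With limma's treat at a log2 difference of 1, calls among the 6 genes were 0 between sugars with DNP and 1 for AC over DNP on mannitol, and with only the compared arrays also 0 and 1. For the other defence genes, treat left 1 call between sugars in air, 6 and 10 for DNP over air on glucose and mannitol, 2 and 4 for AC over air, 0 between sugars under AC, and 2 and 1 for AC over DNP. With only the compared arrays, 5 calls were left between sugars in air, 0 between sugars under AC and 1 for AC over DNP on mannitol, and with renewed quantile normalization 1 was left between sugars under AC. The causes were not tested.

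Leaving out each array gave, for the 6 genes, 0 to 1 calls between sugars with DNP, 0 to 1 under AC, 1 to 1 for AC over DNP on glucose and 1 to 2 on mannitol. For the other defence genes it gave 3 to 9 between sugars in air, 18 to 21 and 19 to 23 for DNP over air on glucose and mannitol, 11 to 15 and 18 to 24 for AC over air, 0 to 0 between sugars with DNP, 0 to 2 under AC, and 7 to 8 and 3 to 4 for AC over DNP.

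Signs turned in 9 cases of small differences. With renewed quantile normalization, salT was -0.027 between sugars under AC and 0.41 for DNP over air on glucose, and AC over DNP on glucose was -0.044 for CH6 and -0.044 for CH16. With 1 array left out it ranged from -0.12 to 0.24 for CH6 and from -0.11 to 0.20 for CH16, and that of GER4 on mannitol from -0.48 to 0.12. It was -0.12 for CH6 without replicate 1 of GlcDNP, -0.11 for CH6 without replicate 2 of GlcAC and -0.11 for CH16 without replicate 2 of GlcDNP. AC over DNP on mannitol was 0.10 for GER4 when replicate 2 of MtlDNP was left out and 0.12 when replicate 2 of MtlAC was. Over all alternatives, tested differences of the 6 genes kept direction and call in 487 of 534 cases, but most of these differences were not calls. The call of salT between sugars with DNP was lost in 14 of 18 alternatives, and that of its interaction in 14 of 17. That of OsICS for AC over DNP on mannitol was lost in 10 of 18. The 2 calls of salT for AC over DNP were kept in all 18. Differences of the named other genes kept direction and call in 1437 of 1592 cases.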
